A study of Mus musculus with 9 samples.

Results

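Importazole, a small-molecule inhibitor of the nuclear import receptor importin-β, was compared with its vehicle across the transcriptome of HL-1 cells, a line of mouse atrial cardiomyocytes that can contract in culture and keeps features of differentiated heart muscle. The comparison was made of the 6 samples that the labels name as importazole (10 µM for 24 h, n = 3) or vehicle (0.1% DMSO for 24 h, n = 3), out of 9 samples in the series. The other 3 samples received 5 µM ivermectin for 24 h and were used only to compare both compounds. All groups were HL-1 cells kept in Claycomb Medium, and the values are FPKM, which correct fragment numbers for the length of the transcript and for library size. Genes were kept when they reached 1 FPKM in at least 3 of the 6 samples, which left 11154 genes of 25175 symbols. No DMSO content is given in the labels of the importazole and ivermectin groups, so the solvent and the compounds cannot be told apart if it differed. They do not say that the samples came from separate cultures, so the p-values below reflect the spread among these samples alone, and that spread could be technical.

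Importin-β carries proteins into the nucleus, either alone or through the adaptor importin-α, and lets them go when it binds the GTP form of the small GTPase Ran. Importazole was described as a compound that disturbs the binding of importin-β to Ran in its GTP form. Among the known cargoes of importin-β is the mature form of SREBP-2, a transcription factor that switches on genes of cholesterol synthesis and uptake when membranes are short of sterol. A separate program under the transcription factor ATF4 raises amino acid synthesis, amino acid uptake and the charging of transfer RNAs, and in heart muscle both programs run beside a large output of contractile and mitochondrial transcripts.

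The depth in reads is unknown, since the files give FPKM. Ratios between the lowest values placed the relative depth of the other 5 samples at 0.923 to 1.24 times that of vehicle 1, an estimate that rests on 108 to 132 genes per sample. Summed FPKM ran from 365259 to 416748, and 11055 to 11173 genes per sample reached 1 FPKM. One abundant transcript, Yam1, took 5.86% to 9.64% of each summed FPKM except in vehicle 2, where the file lists it at 0. Pearson correlations of log2(FPKM + 1) across genes, which are not independent replicates, were 0.988 to 0.993 within groups and 0.985 to 0.991 between them. Of the markers of the line, 13 of 13 cardiomyocyte and 5 of 5 atrial markers were among the genes tested. So were 4 of 5 smooth muscle, 2 of 4 ventricular, 2 of 8 endothelial and 1 of 6 macrophage markers. Passing the filter therefore does not by itself set atrial cells apart. Acta2, a smooth muscle marker, had a mean of 1150 FPKM, and the ventricular marker Myh7 one of 39.7 FPKM. Of 10 fibroblast markers only Ddr2 was tested, and the mean of each of the other 9, Col1a1 among them, was under 1 FPKM. Whether the authors counted by strand was not given in these sources, so a gene that lies across another on the other strand has an uncertain value. Of the genes named below these are Aldh1l2, Atf5, Cyp51, Fdft1, Elovl1, Psph, Cebpb, Ddit3, Yars, Hars, Hars2, Fars2, Eif2ak1, Shmt1, Srebf1, Bid, Atp1b1, Ddr2, Rangap1, mt-Nd5 and mt-Nd6.

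After 24 h with importazole, most transcripts of cholesterol synthesis and many of the ATF4 amino acid program were higher, and most messages encoded in the mitochondrial genome were lower. Of the 11154 genes tested, 283 (2.54%) passed the test (limma on log2(FPKM + 1), two-sided, adjusted p under 0.05), 216 of them higher (1.94%) and 67 lower (0.601%). The median log2 change was 0.51 among the genes that rose, -0.44 among those that fell and 0.04 over all genes tested, the sizes being similar in both directions. A change of at least 1 log2 unit was reached by 18 genes, which were all higher. In all 283 the 3 samples of one group lay above the 3 of the other, so a lack of overlap given below for a called gene is no further support. At an unadjusted p under 0.05 there were 1941 genes (17.4%). Every log2 change here was taken after adding 1 to the FPKM, so changes of weakly expressed genes come out too small.

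**Figure D1:**
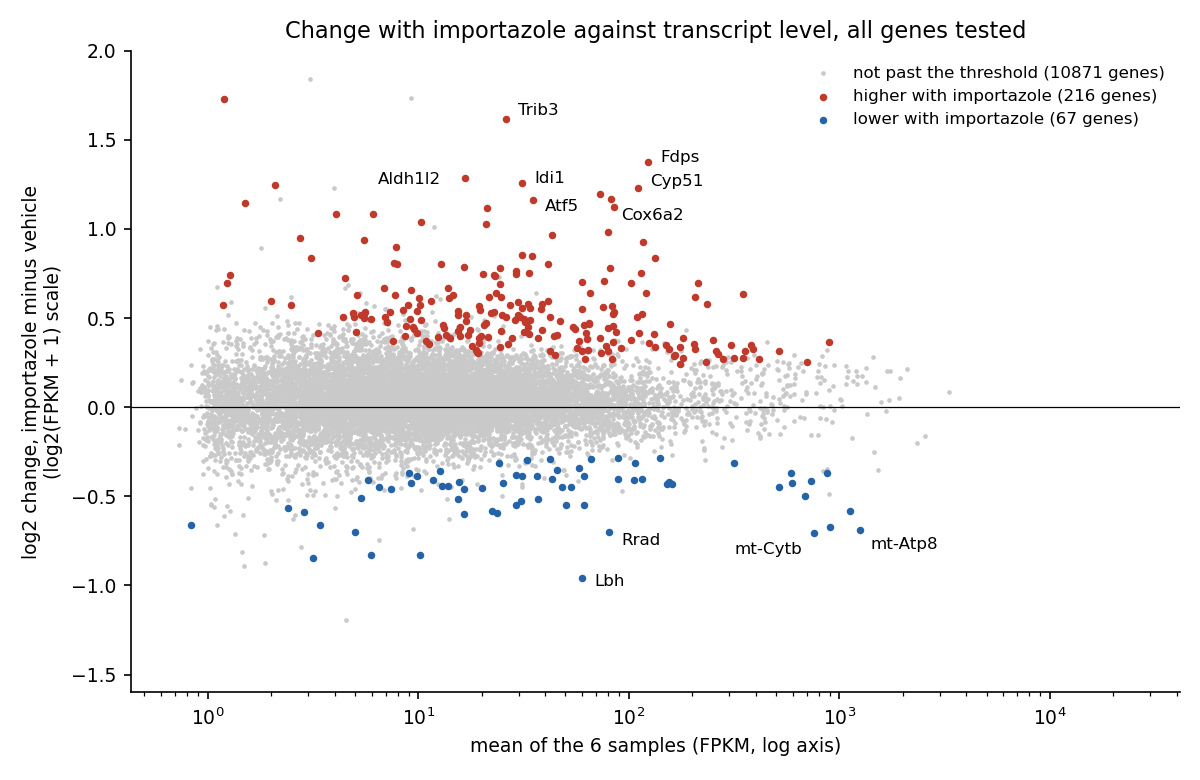
Each point is 1 of the 11154 genes tested, with the mean of the 6 samples (FPKM, log axis) against the log2 change with importazole, and 3 genes lie outside the plotted range. The 216 genes higher with importazole (red) reach above 1 log2 unit and include Trib3 and Fdps, while the 67 lower genes (blue) stay within 1 log2 unit and include several mitochondrial transcripts at the right.

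The number of genes called was sensitive to single samples. It was 339 without vehicle 1, 121 without vehicle 2, 159 without vehicle 3, and 141, 138 and 157 without importazole 1, 2 and 3. In each of the 15 alternative fits that were run, 91 of the 283 genes passed, 79 higher and 12 lower. The split of 216 higher to 67 lower (76.3% higher) depended on scaling, with 194 to 156 (55.4% higher) after quantile normalization and 199 to 139 (58.9% higher) after median-of-ratios scaling. None of the 283 genes changed sign in any of these fits.

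The genes of mevalonate and sterol synthesis, which turn acetyl-CoA into cholesterol, rose at nearly each step of the pathway. Of 20 tested members 17 rose, against 1.94% of all genes, and 0 fell, with a median log2 change of 0.79 against 0.04 over all genes. At the entry, Hmgcs1, which makes HMG-CoA, stood at 23.3, 23.6 and 26.6 FPKM with vehicle and 44.8, 45.2 and 44.7 FPKM with importazole. The groups did not overlap, and the log2 change was 0.85 ± 0.0683 (SE, limma adjusted p = 0.000383).

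In the isoprenoid steps, Fdps, the synthase of farnesyl diphosphate, stood at 69.1, 69.3 and 66.2 FPKM with vehicle and 183, 174 and 179 FPKM with importazole, 2.62 times the vehicle mean. Its log2 change of 1.38 ± 0.0526 (SE) had the smallest p of the 11154 genes (limma adjusted p = 1.27e-05). Idi1, the isomerase just before it, rose 2.47-fold (log2 change 1.26, limma adjusted p = 3.37e-05), while the kinase genes Mvk and Pmvk rose less, by 0.58 and 0.49 on the log2 scale (limma adjusted p = 0.00426 and 0.00783). The first enzyme committed to sterols, squalene synthase (Fdft1), went from 13.4 ± 0.707 to 28.3 ± 0.850 FPKM (mean ± SD, n = 3). Squalene epoxidase (Sqle), a second point of control, went from 59.5 ± 3.85 to 103 ± 2.83 FPKM. These isoprenoid and squalene genes were each past the threshold in all 15 alternative fits.

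In the steps from lanosterol to cholesterol, Cyp51, the lanosterol demethylase (GRCm38 chromosome 5, 4081145 to 4104746, minus strand), stood at 63.0, 67.1 and 66.0 FPKM with vehicle and 155, 145 and 165 FPKM with importazole. Its log2 change was 1.23 ± 0.0629 (SE, limma adjusted p = 3.37e-05), with the lowest importazole sample above the highest vehicle sample. Msmo1 and Nsdhl, which take part in removing methyl groups from a carbon other than that of Cyp51, changed by 1.19 and 1.12 (limma adjusted p = 0.000178 and 0.000232). Later steps rose less, with log2 changes of 0.64 for the desaturase Sc5d and 0.85 for the reductase Dhcr7. The 3 members that did not pass were Ebp, a sterol isomerase (log2 change 0.28, limma adjusted p = 0.0757), Lbr (0.16, 0.213) and Tm7sf2 (-0.09, 0.857), which both encode reductases of the same ring position. Hsd17b7, which encodes a keto reductase, rose by 0.61 (limma adjusted p = 0.0373). Hsd17b7 did not pass without vehicle 1, vehicle 2, importazole 1, importazole 2 or importazole 3 (limma adjusted p 0.065 to 0.138).

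Of 12 tested genes that sense or take up sterol, 5 rose, against 1.94% of all genes, and 0 fell. Insig1, which holds the SREBP precursors in the endoplasmic reticulum when sterol is plentiful and is itself a target of SREBP (GRCm38 chromosome 5, 28071363 to 28078662, plus strand), stood at 54.5, 50.4 and 54.1 FPKM with vehicle and 113, 117 and 120.5 FPKM with importazole (log2 change 1.13, limma adjusted p = 3.37e-05). The gene of its partner Insig2 stood at 14.4, 10.2 and 11.2 FPKM with vehicle and 8.09, 12.7 and 10.2 FPKM with importazole, with overlapping groups (log2 change -0.20, limma adjusted p = 0.576). Stard4, a carrier of cholesterol inside cells, stood at 15.2, 14.3 and 14.7 FPKM with vehicle and 22.2, 24.5 and 30.3 FPKM with importazole (log2 change 0.75, limma adjusted p = 0.00783). Srebf2, which encodes SREBP-2, rose by 0.45 on the log2 scale (limma adjusted p = 0.0115), whereas Srebf1 did not pass (0.18, 0.269). The lipoprotein receptor gene Scarb1 rose by 0.35 (limma adjusted p = 0.0175). The genes that move and cut the SREBP precursors, Scap and Mbtps1, had log2 changes of 0.00 and -0.02 (limma adjusted p = 0.983 and 0.908). Srebf2 did not pass without vehicle 2 (limma adjusted p = 0.0504). Scarb1 did not pass without vehicle 2, vehicle 3, importazole 1 or importazole 2 (limma adjusted p 0.0593 to 0.0805). The number of sterol sensing and uptake genes that rose was thus 3 without vehicle 2. None of 6 tested genes of cholesterol efflux and esterification passed in limma, and 1 did at an unadjusted p under 0.05, Apoe (log2 change 0.35, limma adjusted p = 0.132).

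The promoter of Hmgcs1 is shown because it was the only one of 21 promoters of called sterol and fatty acid genes that held the letters TCACNCCAC, a form of the sterol regulatory element to which SREBP binds. The promoters run from 250 bases before to 50 after the start of each gene in RefSeq on GRCm38.p6, and both strands were searched. These letters occurred in 1.44% of the promoters of all 27025 genes in the table and in 1.41% of those of the tested genes. Among tested members of the sterol and fatty acid lists, called or not, 2 of 35 promoters (5.71%) held them, the nearer comparison. Of the 31 called members 21 had a promoter in the table. The stretch below is the plus strand of chr13:119690189-119690248, in the promoter upstream of the transcript, with the match, which begins 137 bases before the start, in capitals.
Hmgcs1: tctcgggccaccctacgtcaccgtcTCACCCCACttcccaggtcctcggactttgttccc
A match describes these letters only, and the absence of one from the other 20 promoters says nothing of SREBP there.

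**Figure D2:**
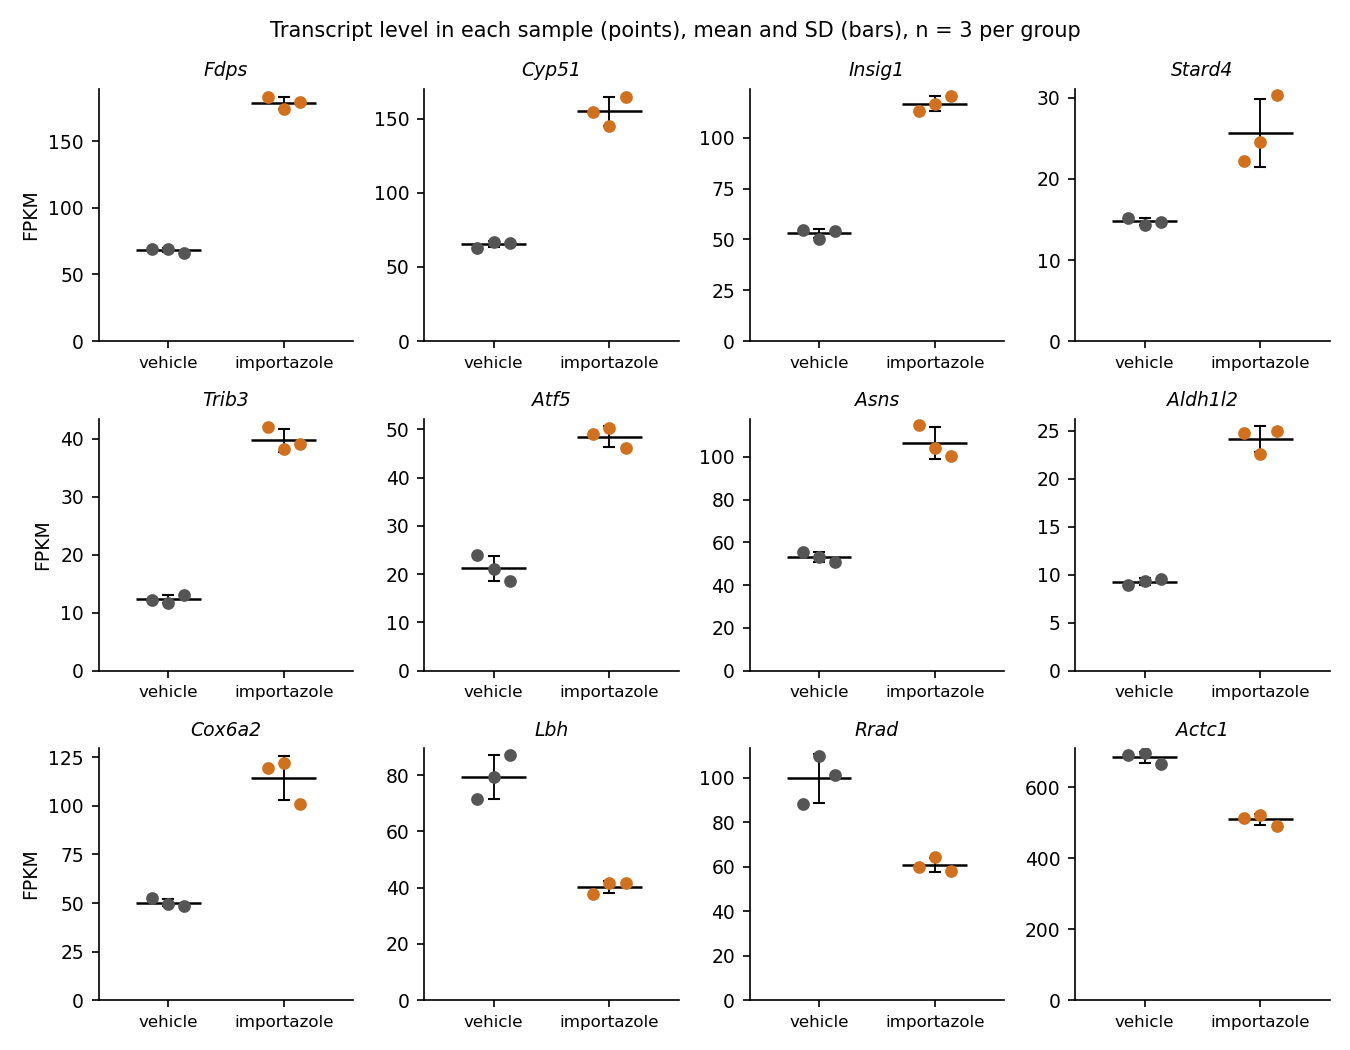
Each panel gives 1 gene, with FPKM on the vertical axis from 0, the 3 samples of each group as points, and the mean and SD as bars. In all 12 panels the vehicle and importazole samples do not overlap, from Fdps at 66.2 to 69.3 FPKM with vehicle and 174 to 183 FPKM with importazole to the decreases of Lbh, Rrad and Actc1. The panels were chosen from the 283 called genes, none of which has overlapping groups, so the lack of overlap follows from the choice.

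Fatty acid synthesis moved in the same direction by less. Of 15 tested members 9 rose, against 1.94% of all genes, and 0 fell. Their median log2 change was 0.38, against 0.04 over all genes. Acly, which supplies cytosolic acetyl-CoA, stood at 59.1, 60.2 and 53.2 FPKM with vehicle and 95, 93.9 and 94.4 FPKM with importazole. Fasn, the synthase that builds the chain, stood at 97.0, 95.9 and 89.7 FPKM with vehicle and 136, 158 and 148 FPKM with importazole (log2 change 0.64 ± 0.0684, SE, limma adjusted p = 0.00175). Neither gene had overlapping groups. Acaca, which makes the malonyl-CoA that Fasn uses, rose by only 0.34 (limma adjusted p = 0.0493). Acaca did not pass when any 1 of the 6 samples was left out (limma adjusted p 0.0749 to 0.161). The desaturase genes Fads1 and Fads2 rose by 0.52 and 0.47 (limma adjusted p = 0.000831 and 0.00426), and the elongase gene Elovl1 rose by 0.52 (limma adjusted p = 0.00463). Scd2, the more abundant delta-9 desaturase, rose by 0.64 (limma adjusted p = 0.000764), and Scd1, at 1.11, 1.0 and 1.2 FPKM with vehicle and 1.64, 1.80 and 1.78 FPKM with importazole, did not pass (0.38, 0.0977). The malic enzyme gene Me1 stood at 45.1 ± 2.33 to 45.4 ± 2.20 FPKM (log2 change 0.01, limma adjusted p = 0.963).

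In the other lipid lists fewer members passed. Of 25 tested genes of phospholipid and glycerolipid synthesis 1 passed, a share of 4.0% against 2.54% over all genes. It was Pcyt2, the rate-limiting enzyme of phosphatidylethanolamine synthesis by the CDP route, which rose by 0.57 (limma adjusted p = 0.0141). Of 27 tested genes of fatty acid oxidation 3 rose and 1 fell (14.8% called, against 2.54% over all genes). Their median log2 change was -0.06. The 3 that rose all encode acyl-CoA synthetases, which activate fatty acids for any use: Acsl1 (0.47, limma adjusted p = 0.00428), Acsl3 (0.53, 0.0136) and Acsl4 (0.42, 0.0402). Cpt2, the inner-membrane carnitine transferase that admits fatty acids to oxidation, stood at 34.5, 35.2 and 36.0 FPKM with vehicle and 26.2, 25.9 and 28.1 FPKM with importazole and fell by 0.39 (limma adjusted p = 0.0136). Pcyt2 did not pass without vehicle 2, importazole 1, importazole 2 or importazole 3 (limma adjusted p 0.0582 to 0.0745). Acsl3 did not pass without vehicle 2, importazole 2 or importazole 3 (limma adjusted p 0.059 to 0.0651). Acsl4 did not pass when any 1 of the 6 samples was left out (limma adjusted p 0.0696 to 0.141). Cpt2 did not pass without vehicle 2, vehicle 3, importazole 1 or importazole 2 (limma adjusted p 0.0555 to 0.0664).

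Many, but not all, regulators and targets of ATF4 passed as higher. Of 20 tested ATF4 and stress regulators 12 rose, against 1.94% of all genes, and 0 fell. Their median log2 change was 0.42, against 0.04 over all genes. Trib3, a pseudokinase that ATF4 induces and that in turn restrains it (GRCm38 chromosome 2, 152337422 to 152344032, minus strand), stood at 12.2, 11.6 and 13 FPKM with vehicle and 42.0, 38.2 and 39.1 FPKM with importazole. Its log2 change of 1.62 ± 0.0702 (SE, limma adjusted p = 1.92e-05) was the largest among called genes with a mean of at least 5 FPKM. Atf4 itself stood at 82.5, 72.6 and 84.2 FPKM with vehicle and 163, 148 and 146 FPKM with importazole (0.93, 0.000369), and Atf5, a relative under the same control, at 23.9, 21.1 and 18.7 FPKM with vehicle and 49.1, 50.3 and 46.1 FPKM with importazole (1.16, 0.000369). The groups did not overlap for any of these 3 genes. Cebpb, a partner factor of ATF4, rose from 9.04 ± 1.03 to 16.5 ± 1.16 FPKM, and Sesn2, a leucine sensor that holds back mTORC1, rose from 7.85 ± 0.579 to 11.8 ± 0.105 FPKM. The genes Ddit3 (0.64), which encodes CHOP, Nupr1 (1.08), a stress-induced chromatin protein, and Gdf15 (1.04), a secreted stress hormone, rose with wider spread (limma adjusted p = 0.0261, 0.0179 and 0.0141). Ddit3 did not pass without vehicle 1, vehicle 2, vehicle 3, importazole 1 or importazole 2 (limma adjusted p 0.0544 to 0.104). Nupr1 did not pass without vehicle 2, importazole 1 or importazole 3 (limma adjusted p 0.0762 to 0.0777). Gdf15 did not pass without vehicle 2, vehicle 3, importazole 1 or importazole 2 (limma adjusted p 0.0517 to 0.0602). The number of regulators that rose was 6 without vehicle 2 or importazole 1 and 7 without vehicle 3 or importazole 2.

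Not each stress gene moved. Atf3, another stress-induced factor, stood at 4.75, 5.06 and 4.65 FPKM with vehicle and 4.85, 5.45 and 3.84 FPKM with importazole with overlapping groups (-0.04, limma adjusted p = 0.905). The stress kinases that phosphorylate eIF2 and so raise ATF4 protein had log2 changes of 0.03 (Eif2ak1), 0.21 (Eif2ak2), -0.10 (Eif2ak3) and 0.02 (Eif2ak4), and none passed (limma adjusted p 0.293 to 0.951). Ppp1r15a, which reverses that phosphorylation, was near 0 in log2 change (0.08, limma adjusted p = 0.664). Of 22 genes of the unfolded protein response and endoplasmic reticulum chaperones 1 passed (4.55%, against 2.54% over all genes). It was Herpud1, a membrane protein of protein disposal that ATF4 can also induce (0.56, limma adjusted p = 0.00848).

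Enzymes of serine, glycine and folate metabolism rose in 6 of 15 tested members, against 1.94% of all genes, and fell in 0. Their median log2 change was 0.28, against 0.04 over all genes. Phgdh, which opens serine synthesis, stood at 93.6, 93.4 and 99.7 FPKM with vehicle and 172, 171 and 172 FPKM with importazole, and Psph, which closes it, at 30.8, 26.3 and 29.9 FPKM with vehicle and 62.0, 53.8 and 57.1 FPKM with importazole. The log2 changes were 0.84 ± 0.0524 (SE, limma adjusted p = 0.000128) and 0.97 ± 0.0802 (limma adjusted p = 0.000421), and the middle enzyme gene Psat1 rose by 0.56 (limma adjusted p = 0.0024). In the mitochondrial folate branch, which takes the carbon of serine, Aldh1l2 stood at 8.91, 9.39 and 9.58 FPKM with vehicle and 24.8, 22.5 and 25.0 FPKM with importazole (1.29, 5.75e-05), Mthfd2 rose by 0.70 and Shmt2 by 0.58 (limma adjusted p = 0.000369 and 0.00553). The cytosolic enzyme gene Shmt1 had a log2 change of 0.21 and did not pass (limma adjusted p = 0.158).

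Of 16 enzymes of asparagine, proline, aspartate and glutamate metabolism 4 rose, against 1.94% of all genes, and 0 fell. Their median log2 change was 0.07, against 0.04 over all genes. Asns, which makes asparagine, stood at 55.7, 53.3 and 50.8 FPKM with vehicle and 115, 104 and 101 FPKM with importazole, 2.0 times the vehicle mean (0.99 ± 0.0679, SE, limma adjusted p = 0.000187). The proline synthesis genes Aldh18a1 and Pycr1 rose by 0.75 and 0.80 (limma adjusted p = 0.00604 and 0.00891). The fourth was Gpt2, a mitochondrial alanine transaminase (0.58, limma adjusted p = 0.0453). Gpt2 did not pass without vehicle 2, vehicle 3, importazole 1, importazole 2 or importazole 3 (limma adjusted p 0.0614 to 0.153).

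Amino acid transporters rose in 6 of 15 tested members, against 1.94% of all genes, and fell in 0. Their median log2 change was 0.31, against 0.04 over all genes. Slc1a4, which carries alanine, serine and cysteine, stood at 5.46, 5.06 and 5.37 FPKM with vehicle and 10.2, 9.57 and 10.4 FPKM with importazole (0.81, limma adjusted p = 0.000811). The glutamine carrier Slc1a5 rose from 23.5 ± 1.33 to 35.9 ± 1.51 FPKM and the carrier of cationic amino acids Slc7a1 from 18.6 ± 0.344 to 27.4 ± 0.661 FPKM. The glycine transporter gene Slc6a9 rose by 0.90, Slc3a2, the shared heavy chain of several exchangers, by 0.47, and the glutamate carrier Slc1a3 by 0.53 (limma adjusted p = 0.0106, 0.00868 and 0.0182). Slc6a9 did not pass without vehicle 2 (limma adjusted p = 0.052). Slc3a2 did not pass without vehicle 2 (limma adjusted p = 0.0513). Slc1a3 did not pass without vehicle 2, vehicle 3, importazole 1 or importazole 2 (limma adjusted p 0.052 to 0.0879).

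The cytosolic tRNA synthetases, which load amino acids on their transfer RNAs, rose in 10 of 20 tested members, against 1.94% of all genes, and fell in 0. All 20 log2 changes were above 0, with a median of 0.36 against 0.04 over all genes. The largest was that of Cars, for cysteine, from 18.5 ± 1.42 to 30.4 ± 1.43 FPKM (0.69, limma adjusted p = 0.00197). Iars, for isoleucine, stood at 18.3, 19.6 and 20.1 FPKM with vehicle and 29.99, 30.8 and 29.8 FPKM with importazole (0.62, limma adjusted p = 0.00134), and Nars, for asparagine, went from 32.7 ± 1.30 to 49.9 ± 1.2 FPKM (0.59, 0.00115). Hars, for histidine, stood at 23.3, 22.9 and 22.5 FPKM with vehicle and 22.6, 23.3 and 22.9 FPKM with importazole, with overlapping groups (0.00, limma adjusted p = 0.991), and Farsa, a synthetase subunit for phenylalanine, was as near to 0 (0.01, 0.977). Of 17 mitochondrial tRNA synthetases 0 passed in limma and 2 had an unadjusted p under 0.05, Hars2 (0.25, limma adjusted p = 0.254) and Fars2 (-0.18, 0.26). Their median log2 change was 0.04, beside 0.04 over all genes, and -0.02 after quantile normalization. Among the called members, Aars did not pass without vehicle 2 (limma adjusted p = 0.0526). Gars did not pass without vehicle 2, importazole 1 or importazole 3 (limma adjusted p 0.0558 to 0.069). Sars did not pass without importazole 1 or importazole 2 (limma adjusted p 0.0654 to 0.0688). Yars did not pass without vehicle 2, vehicle 3, importazole 1, importazole 2 or importazole 3 (limma adjusted p 0.065 to 0.164).

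Promoters of 4 genes of these amino acid lists are shown because they hold the letters TGATGNAA, a core that ATF4 and its C/EBP partners bind, and had the smallest p among called members that do. Of 32 promoters of called members, 11 (34.4%) held a match on either strand, those of Aars, Asns, Fgf21, Gars, Iars, Nupr1, Pycr1, Slc1a4, Tars, Trib3 and Yars. Among all tested members of the same lists, called or not, 14 of 64 promoters (21.9%) held one. The lists were chosen as ATF4 and amino acid genes, so that share is the nearer comparison. A match stood in 2.41% of the promoters of the tested genes, in 4.51% of those of all genes in the table, in 10.3% of those of the 156 genes called higher and in 2.38% of those of the 42 called lower that had a promoter in the table. The sequences are RefSeq promoter stretches on GRCm38.p6, each on the strand of its gene and read 5′ to 3′, with the match in capitals. They come from chr2:152344025-152344054 (minus strand), chr6:7693210-7693269 (minus), chr11:20332696-20332725 (minus) and chr13:49682129-49682158 (plus).
Trib3: gctcaggtTTACATCAgccgggcggggatc
Asns: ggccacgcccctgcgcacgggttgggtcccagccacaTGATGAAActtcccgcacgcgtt
Slc1a4: ctcctgcgTTGCATCAtctccagcctgcag
Iars: tgtcagtaTTGCATCAcctccagacgcgga
In Asns the motif reads forward and begins 23 bases before the start. In Trib3, Slc1a4 and Iars it reads on the opposite strand, so the capitals begin with TT, and it lies at or just after the start. A match is a description of letters and not of a bound site.

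**Figure D3:**
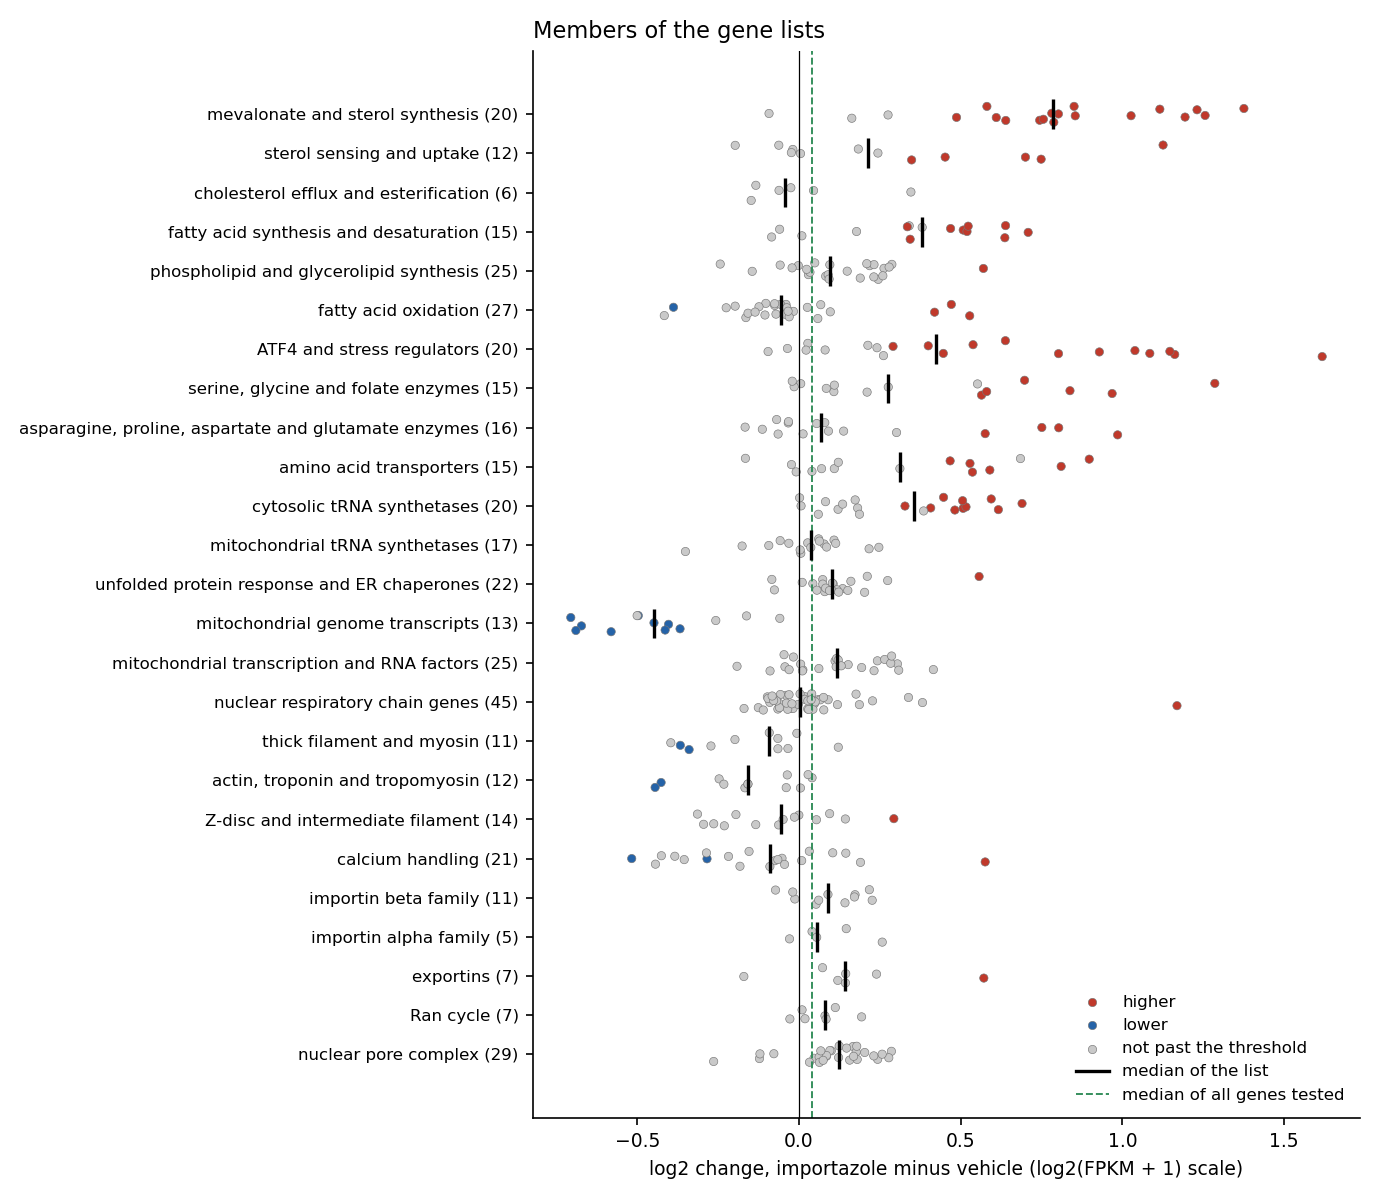
Each point is a tested member of 1 of 25 gene lists (number of members in brackets) at its log2 change with importazole, coloured by the test, with black bars at the list medians and a dashed line at the median of all genes tested. The sterol, fatty acid, ATF4 and amino acid lists lie to the right, the 13 mitochondrial genome transcripts to the left, and the importin, Ran and nuclear pore lists near the dashed line.

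All 13 protein-coding transcripts of the mitochondrial genome had log2 changes below 0, and 9 of them fell, against 0.601% of all genes tested. Their median log2 change was -0.45. Of the ATP synthase subunit transcripts, mt-Atp6 stood at 1099, 1102 and 1127 FPKM with vehicle and 663, 689.6 and 735 FPKM with importazole, and mt-Atp8 at 1541, 1540.0 and 1542 FPKM with vehicle and 1044, 888 and 939 FPKM with importazole (log2 changes -0.67 and -0.69, limma adjusted p = 0.000383 and 0.000811). The groups did not overlap for either. These neighbours overlap in the genome, so their values are not independent.

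Among the transcripts of the other complexes, mt-Cytb, of complex III, stood at 1027, 834 and 948 FPKM with vehicle and 511, 577 and 633 FPKM with importazole (-0.71, limma adjusted p = 0.00611). In complex IV, mt-Co2 stood at 1452, 1224 and 1369 FPKM with vehicle and 810.4, 909.9 and 986 FPKM with importazole and mt-Co3 at 822, 821 and 865 FPKM with vehicle and 639.8, 629 and 613 FPKM with importazole (-0.58 and -0.41, limma adjusted p = 0.0092 and 0.00338), but mt-Co1 stood at 2816, 2543 and 2673 FPKM with vehicle and 2128, 2443 and 2629 FPKM with importazole, with overlapping groups (-0.16, limma adjusted p = 0.336). In complex I, mt-Nd1, mt-Nd2, mt-Nd3 and mt-Nd4 fell by 0.37 to 0.50 on the log2 scale (limma adjusted p 0.0118 to 0.0258). The other members of complex I did not pass: mt-Nd4l (-0.50, 0.0586), mt-Nd6 (-0.26, 0.312), the only protein-coding transcript read from the other strand, and mt-Nd5 (-0.06, 0.696). mt-Nd1 did not pass without importazole 1 or importazole 2 (limma adjusted p 0.0542 to 0.0545). mt-Nd2 did not pass without vehicle 3, importazole 1 or importazole 2 (limma adjusted p 0.0708 to 0.0844). mt-Nd3 did not pass without vehicle 2, vehicle 3, importazole 2 or importazole 3 (limma adjusted p 0.0538 to 0.0745). mt-Nd4 did not pass without vehicle 1, vehicle 3, importazole 1 or importazole 2 (limma adjusted p 0.0503 to 0.101). Since mt-Nd4 overlaps mt-Nd4l, and mt-Nd5 overlaps mt-Nd6, these pairs share fragments. The number of members that fell was 5 without importazole 2.

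**Figure D4:**
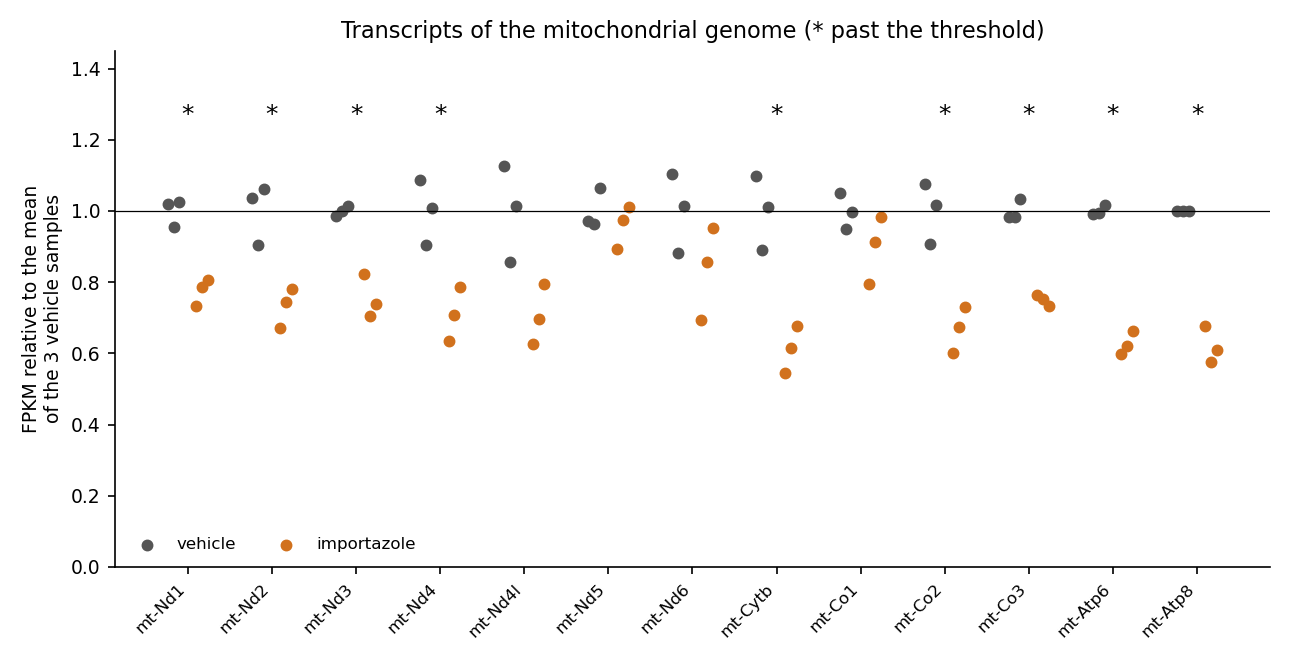
For each of the 13 transcripts the 3 vehicle (grey) and 3 importazole (orange) samples are plotted as FPKM divided by the vehicle mean, with a star where the transcript passed the test. The importazole samples lie below all vehicle samples for the 9 starred transcripts and for mt-Nd4l, while those of mt-Nd5, mt-Nd6 and mt-Co1 reach into the vehicle range.

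Summed over the 13 transcripts, the mitochondrial share of FPKM without Yam1 was 3.39%, 3.26% and 3.55% with vehicle and 2.30%, 2.43% and 2.64% with importazole. The means were 3.40 ± 0.147% and 2.46 ± 0.17% (SD, n = 3), a ratio of 0.723, with no overlap. The exact two-sided permutation test gave p = 0.1, the smallest that 3 against 3 samples allow. In bulk samples fewer mitochondria or mitochondrial genomes per cell and less RNA from each cannot be told apart. Of 25 nuclear genes that transcribe and process mitochondrial RNA 0 passed in limma, with 7 higher and 1 lower at an unadjusted p under 0.05, the smallest p being that of Tefm, an elongation factor of the mitochondrial polymerase (0.42, limma adjusted p = 0.0724). Of 45 nuclear genes of the respiratory chain 1 passed (2.22%, against 2.54% over all genes), with a median log2 change of 0.00. It was Cox6a2, the heart and muscle isoform of a complex IV subunit, which stood at 52.4, 49.5 and 48.6 FPKM with vehicle and 119.7, 122 and 101 FPKM with importazole (1.17 ± 0.0793, SE, limma adjusted p = 0.000181).

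The muscle genes that passed were lower in most lists, by small amounts. Rrad, a small GTPase that restrains the L-type calcium channel, stood at 88.0, 109.8 and 101 FPKM with vehicle and 59.7, 64.2 and 58.2 FPKM with importazole (-0.70 ± 0.0847, SE, limma adjusted p = 0.00346). Among thick filament genes 2 of 11 fell and 0 rose, against 0.601% lower over all genes, among them Smyd1, a methyltransferase and helper of myosin assembly (-0.34, limma adjusted p = 0.0135). Among actin, troponin and tropomyosin genes 2 of 12 fell and 0 rose, the cardiac actin Actc1, at 692, 695 and 667 FPKM with vehicle and 514, 521 and 492 FPKM with importazole (-0.43, limma adjusted p = 0.00311), and Tnnc1, the cardiac and slow muscle troponin C (-0.44, 0.0092). Of 14 Z-disc and intermediate filament genes 1 passed (7.14%, against 2.54% over all genes), and it was higher: Ankrd1, a stretch-responsive protein (0.29, limma adjusted p = 0.0328). Smyd1 did not pass without vehicle 2, importazole 1, importazole 2 or importazole 3 (limma adjusted p 0.0544 to 0.073). Tnnc1 did not pass without vehicle 2 (limma adjusted p = 0.0558). Ankrd1 did not pass without vehicle 2, vehicle 3, importazole 1, importazole 2 or importazole 3 (limma adjusted p 0.0838 to 0.133). The thick filament count was 0 without vehicle 2, importazole 1, importazole 2 or importazole 3, 4 with quantile-normalized values and 5 under median-of-ratios scaling. The medians of these 3 lists were -0.09, -0.16 and -0.06, against 0.04 over all genes.

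Of 21 calcium handling genes 2 fell and 1 rose (14.3% called, against 2.54% over all genes), with a median log2 change of -0.09. Hrc, which binds calcium in the sarcoplasmic reticulum, stood at 18.1, 19.3 and 17.8 FPKM with vehicle and 12.8, 12.8 and 12 FPKM with importazole (-0.52, limma adjusted p = 0.00576), and Casq2, the main calcium store protein there, fell by 0.28 (0.0412). Sln, a small inhibitor of the calcium pump that marks atrial cells, stood at 1.58, 1.56 and 2.29 FPKM with vehicle and 3.27, 3.06 and 3.15 FPKM with importazole, low levels at which it rose by 0.58 (limma adjusted p = 0.0422). Of 16 channel genes 1 passed (6.25%, against 2.54% over all genes), Atp1b1, a subunit of the sodium pump (-0.31, limma adjusted p = 0.0217). Casq2 did not pass when any 1 of the 6 samples was left out (limma adjusted p 0.0554 to 0.155). Sln did not pass without vehicle 1, vehicle 2, importazole 1, importazole 2 or importazole 3 (limma adjusted p 0.0816 to 0.152). Atp1b1 did not pass without vehicle 2, vehicle 3, importazole 1 or importazole 3 (limma adjusted p 0.0587 to 0.0957). Of 18 cardiac transcription factor genes 0 passed in limma, 5 were lower and 0 higher at an unadjusted p under 0.05, and the smallest p was that of Myocd, a coactivator of smooth and cardiac muscle genes (-0.31, limma adjusted p = 0.117).

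Secreted factors moved both ways, with 3 of 15 higher and 1 lower, against 1.94% and 0.601% over all genes. Nppa, the atrial natriuretic peptide gene, stood at 174, 167 and 148 FPKM with vehicle and 260.2, 238 and 252 FPKM with importazole (0.62 ± 0.0714, SE, limma adjusted p = 0.00276). Nppb, its relative, stood at 0.769, 1.04 and 1.73 FPKM with vehicle and 1.92, 2.08 and 1.22 FPKM with importazole and did not pass (0.34, 0.387). Fgf21, a hormone that ATF4 induces, stood at 0.441, 0.637 and 0.567 FPKM with vehicle and 2.90, 2.23 and 2.18 FPKM with importazole (1.15, limma adjusted p = 0.00175), and Gdf15, given above, was the third. The one that fell was Igf1, a growth factor, from 4.41 ± 0.701 to 2.40 ± 0.0736 FPKM (-0.66, 0.0163). Igf1 did not pass without vehicle 2, vehicle 3, importazole 1, importazole 2 or importazole 3 (limma adjusted p 0.0548 to 0.0681). The summed FPKM of 13 cardiomyocyte markers was 5520 to 6160 with vehicle and 5250 to 5650 with importazole. That of 5 atrial markers was 3340 to 3800 and 3200 to 3380, and that of 5 smooth muscle markers 1380 to 1440 and 1200 to 1310. Ddr2, the one fibroblast marker tested, rose (0.49, limma adjusted p = 0.0102). The 10 fibroblast markers summed to 23.8 to 27.1 FPKM with vehicle and 34.8 to 37.2 FPKM with importazole. Most of that sum was Ddr2 itself, at 21.8 to 35.3 FPKM over the 6 samples, so it does not show a rise across fibroblast markers. Ddr2 did not pass without importazole 2 (limma adjusted p = 0.056). The part of these markers in the muscle results was not tested.

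Lbh, a cardiac transcription cofactor that Wnt signalling can induce, had the largest decrease among called genes with a mean of at least 5 FPKM (GRCm38 chromosome 17, 72918305 to 72941947, plus strand). It stood at 71.6, 79.5 and 87.2 FPKM with vehicle and 37.8, 41.5 and 41.7 FPKM with importazole (-0.96 ± 0.0810, SE, limma adjusted p = 0.000487), an importazole mean 0.508 times the vehicle mean. In the same list of 10 Wnt genes Dkk3, a secreted relative of Wnt inhibitors, rose, from 69.3 ± 2.06 to 101 ± 1.49 FPKM (0.54, limma adjusted p = 0.00109), and the other 8 did not pass. The share called in that list was 20.0%, against 2.54% over all genes. Sh3kbp1, an adaptor in receptor uptake, fell from 27.1 ± 1.38 to 17.7 ± 0.839 FPKM (-0.58, 0.00312). The decreases of Sema6c, a semaphorin (-0.83), Zcchc5 (-0.70) and Avp, the vasopressin gene (-0.60), were of like size with wider spread (limma adjusted p = 0.0149, 0.0143 and 0.0175). Sema6c did not pass without vehicle 2, vehicle 3, importazole 1 or importazole 3 (limma adjusted p 0.0521 to 0.068). Zcchc5 did not pass without vehicle 2, importazole 1 or importazole 2 (limma adjusted p 0.055 to 0.0652). Avp did not pass without vehicle 2, importazole 1, importazole 2 or importazole 3 (limma adjusted p 0.0581 to 0.0842).

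The nuclear transport machinery, which holds the target of importazole, showed no call among its import receptors. Kpnb1, which encodes importin-β (GRCm38 chromosome 11, 97159714 to 97187881, minus strand), stood at 81.6, 75.2 and 71.2 FPKM with vehicle and 85.1, 90.1 and 82.2 FPKM with importazole. Its log2 change was 0.17 (95% interval 0.02 to 0.33, limma adjusted p = 0.234), so an increase by more than 0.33 lies outside that interval. Of 11 importin-β family members 0 passed in limma, against 2.54% of all genes, and 0 calls in so short a list is near that share. At an unadjusted p under 0.05 there were 4, all higher, against 17.4% of all genes in either direction. Their list had a median log2 change of 0.09, against 0.04 over all genes. The smallest p was that of Ipo7, at 49.2, 50.3 and 52.5 FPKM with vehicle and 60.7, 56.3 and 60.2 FPKM with importazole (0.22, 95% interval 0.08 to 0.35, limma adjusted p = 0.101). Tnpo2 and Tnpo1, the transportins, had log2 changes of 0.23 and 0.14 (limma adjusted p = 0.212 and 0.253), and the member farthest below 0 was Ipo13 (-0.07, 95% interval -0.29 to 0.14).

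Against 2.54% and 17.4% of all genes, 0 of 5 tested importin-α genes passed and 2 were higher at an unadjusted p under 0.05. They were Kpna3, at 6.36, 5.92 and 6.62 FPKM with vehicle and 7.93, 7.83 and 7.41 FPKM with importazole (0.26, limma adjusted p = 0.128), and Kpna2, at 61.3, 65.9 and 66.3 FPKM with vehicle and 70.4, 73.1 and 71.0 FPKM with importazole (0.15, 0.234). Of 7 genes of the Ran cycle, which powers transport, 0 passed in limma and 0 had an unadjusted p under 0.05. Ran itself had the widest spread, at 482, 422 and 322 FPKM with vehicle and 498, 436 and 453 FPKM with importazole (0.19, 95% interval -0.10 to 0.49), with overlapping groups. Rcc1, the exchange factor that loads Ran with GTP, and Rangap1, which ends that state, had log2 changes of 0.02 (-0.14 to 0.17) and 0.01 (-0.15 to 0.17). Of 29 nuclear pore genes 0 passed, with 6 higher and 1 lower at an unadjusted p under 0.05. The smallest p was that of Rae1, an RNA export factor of the pore (0.28, limma adjusted p = 0.0671). The counts of Ran cycle and pore genes stand against 2.54% passing and 17.4% at an unadjusted p under 0.05 over all genes.

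Among 7 exportins 1 passed (14.3%, against 2.54% over all genes), Xpot, which carries transfer RNA out of the nucleus. It stood at 8.74, 7.83 and 7.53 FPKM with vehicle and 12.1, 12 and 13.2 FPKM with importazole (0.57 ± 0.0818, SE, limma adjusted p = 0.00846), with no overlap. Xpo1, the main exporter of proteins, had a log2 change of 0.24 (95% interval 0.04 to 0.44, limma adjusted p = 0.203), and Cse1l, which returns importin-α to the cytoplasm, one of 0.07 (-0.05 to 0.19, 0.526).

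**Figure D5:**
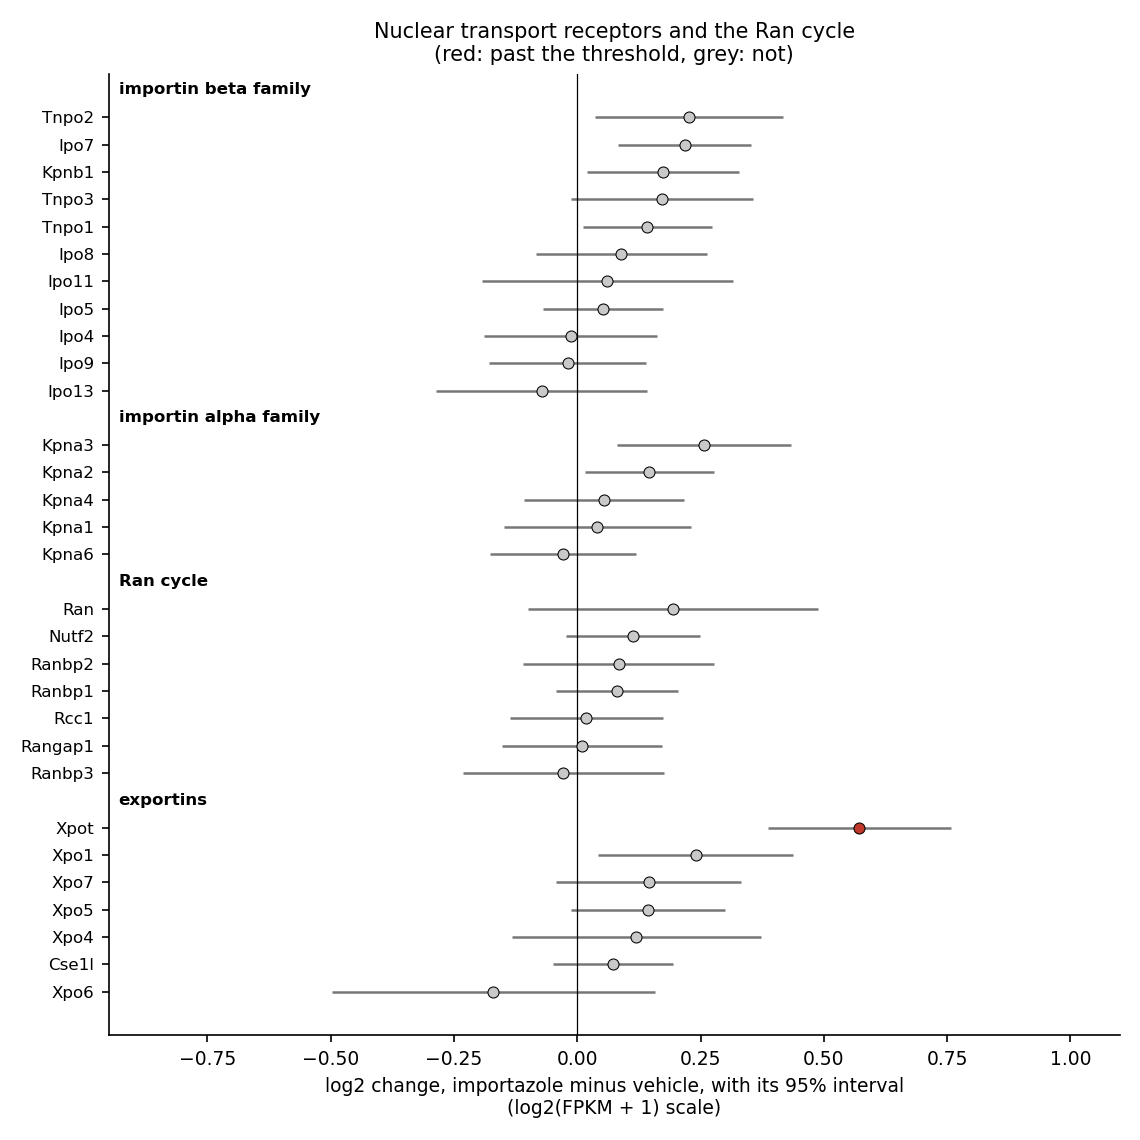
Points give the log2 change with importazole and lines its 95% interval for 11 importin-β, 5 importin-α, 7 Ran cycle and 7 exportin genes, red where the gene passed the test. Xpot alone passed, with an interval of 0.39 to 0.76, and the importin-β gene Kpnb1 has an interval of 0.02 to 0.33.

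Most other stress and growth programs held no call or 1. In limma 0 of 21 tested NRF2 and glutathione genes passed, with 3 higher and 1 lower at an unadjusted p under 0.05, and Ftl1, a ferritin chain, had the smallest p (0.32, limma adjusted p = 0.0667). The aryl hydrocarbon receptor senses many flat aromatic compounds. Of 10 genes of this receptor, its partners and its targets, 3 were expressed enough to test. Of these 3, 0 passed, against 2.54% of all genes, and 0 had an unadjusted p under 0.05. The receptor gene Ahr and the main reporter genes Cyp1a1 and Cyp1b1 were not among the genes tested. Of 5 drug efflux transporters 0 passed and 2 were higher at an unadjusted p under 0.05, with Abcb1b, a P-glycoprotein gene, at 5.36, 5.10 and 5.16 FPKM with vehicle and 6.33, 6.72 and 6.57 FPKM with importazole (0.28, limma adjusted p = 0.0965). Of 18 heat shock protein genes 1 fell (5.56%, against 0.601% lower over all genes), Hspb7, a small heart-enriched member (-0.43, limma adjusted p = 0.0133). Hspb7 did not pass without vehicle 2, importazole 1 or importazole 3 (limma adjusted p 0.0601 to 0.0741).

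The p53 target list had 17 of 17 log2 changes above 0 and a median of 0.21, and 2 members passed (11.8% against 2.54%), Sesn2, given above, and Gadd45a, a growth arrest gene that ATF4 also induces (0.66, limma adjusted p = 0.0168). Gadd45a did not pass without vehicle 2, importazole 1 or importazole 3 (limma adjusted p 0.0691 to 0.0776). In the BCL2 family the 1 of 13 that passed (7.69% against 2.54%) was the death-promoting Bid (0.52, 0.0277). Bid did not pass when any 1 of the 6 samples was left out (limma adjusted p 0.0571 to 0.105). DNA replication and nucleotide genes (0 of 23 in limma, 4 lower and 0 higher at an unadjusted p under 0.05), mitosis genes (0 of 25, 1 lower) and proteasome genes (0 of 33, 3 lower) held no call. Mcm5, a replication helicase subunit, had the smallest p among the replication genes (-0.21, limma adjusted p = 0.102), and Ttk, a spindle checkpoint kinase, among the mitosis genes (-0.30, 0.196).

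In glycolysis 1 of 20 genes passed, Aldoc, an aldolase (0.48, limma adjusted p = 0.0286), and 0 of 19 hypoxia-inducible genes did, with 1 at an unadjusted p under 0.05, Vegfa (0.28, 0.0742). Of 14 interferon genes 1 rose, Bst2, a restraint on virus release (0.46, limma adjusted p = 0.0324). Of 15 immediate early genes 1 fell, Ier3 (-0.31, 0.0325), and of 25 lysosome and autophagy genes 1 rose, Ctsd, a lysosomal protease (0.28, limma adjusted p = 0.0251). Each of these shares, 4.0% to 7.14%, rests on 1 gene and stands against 2.54% of all genes. Aldoc did not pass without vehicle 1, vehicle 2, vehicle 3, importazole 1 or importazole 2 (limma adjusted p 0.0502 to 0.124). Bst2 did not pass without vehicle 2, vehicle 3, importazole 1, importazole 2 or importazole 3 (limma adjusted p 0.0542 to 0.132). Ier3 did not pass without vehicle 2, vehicle 3, importazole 1, importazole 2 or importazole 3 (limma adjusted p 0.0996 to 0.121). Ctsd did not pass without vehicle 2, vehicle 3, importazole 1, importazole 2 or importazole 3 (limma adjusted p 0.0691 to 0.106).

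The remaining lists held no call in limma except 1. Of 15 YAP and TEAD genes the one that rose (6.67%, against 2.54% called over all genes) was Ankrd1, given above. No member passed among 13 calcineurin, NFAT and HDAC genes (2 higher at an unadjusted p under 0.05), 13 TGF-β and BMP targets (1 higher), 9 NF-kB genes (0), 14 iron genes (3 higher), 21 matrix and integrin genes (2 higher and 3 lower), 17 clock genes (2 higher) and 15 intercalated disc genes (1 higher and 3 lower). For scale, 2.54% of all genes tested passed and 17.4% had an unadjusted p under 0.05. The same shares apply to the lists without a call given above. In 22 of the 51 lists no member passed, and 106 of the 283 called genes were in at least 1 list.

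Set against ivermectin, importazole gave higher levels of most sterol genes and lower levels of most mitochondrial messages. In a fit to all 9 samples 388 of 11337 genes (3.42%) differed between the compounds, which were given at different doses (10 µM and 5 µM), so that the values below are given side by side. Of the 20 mevalonate and sterol genes 18 were higher with importazole than with ivermectin and 0 lower. Fdps stood at 39.4, 42.7 and 45.9 FPKM with ivermectin, below the vehicle samples, and the difference between the compounds was 2.04 on the log2 scale (limma adjusted p = 6.37e-08). Insig1 stood at 40.8, 39.7 and 39.5 FPKM with ivermectin (difference 1.52, limma adjusted p = 8.5e-08). Of the 15 fatty acid synthesis genes 10 were higher with importazole and 0 lower.

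Of the amino acid lists, the ATF4 and stress regulators differed between the compounds in 3 of 20 members, against 3.42% of all genes, with Ddit4, an mTORC1 inhibitor, higher with importazole (difference 0.98, limma adjusted p = 0.000331) and Trib3 and Fgf21 lower. Of the 15 serine, glycine and folate enzymes 1 differed, Mthfd2 (difference -0.37, 0.00849), and of the 15 amino acid transporters 1 did, the taurine carrier Slc6a6 (difference 0.92, 2.51e-05). None of the 20 cytosolic tRNA synthetases or of the 16 asparagine, proline, aspartate and glutamate enzymes passed in limma, near the 3.42% of all genes. In each of these lists 5 members had an unadjusted p under 0.05. The share of all genes with such a p is not given for this contrast, so these counts have no scale. Atf4 stood at 146, 156 and 166 FPKM with ivermectin, a difference of -0.04 (95% interval -0.20 to 0.13, limma adjusted p = 0.861), and Trib3 at 52.2, 50.4 and 52.3 FPKM, above all importazole samples (difference -0.37, limma adjusted p = 0.0117). Fgf21 stood at 5.03, 4.78 and 4.14 FPKM with ivermectin, also higher than with importazole (difference -0.72, 0.00577). Of the 13 mitochondrial genome transcripts 11 were lower with importazole than with ivermectin, and the summed share with ivermectin was 3.42% to 3.92%. Lbh at 46.7, 46.7 and 43.0 FPKM and Rrad at 56.7, 46.1 and 56.9 FPKM with ivermectin did not differ past the threshold from importazole (differences -0.17, 95% interval -0.34 to 0.01, and 0.19, -0.03 to 0.41, limma adjusted p = 0.283 and 0.334), which does not show that the compounds act alike on them. Hypoxia-inducible and glycolytic genes were higher with importazole than with ivermectin in 14 of 19 and 14 of 20 members, while none of the former and 1 of the latter differed between importazole and vehicle.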

How the data were processed

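RNA-seq of HL-1 cells was used in 3 vehicle, 3 importazole and 3 ivermectin samples. Per the file headers, each deposited file lists a gene and its FPKM, and the submitters' processing notes name STAR, Bowtie, Bowtie2 and Cufflinks with mm10 and GRCm38, without their roles. FPKM of repeated symbols (48 of 25175) were summed. Genes that reached 1 FPKM in 3 or more of the 6 samples were tested with limma 3.58.1 (R 4.3.3) on log2(FPKM + 1), with trended robust variances and Benjamini-Hochberg adjustment, two-sided. The contrast with ivermectin used all 9 samples. Code for the fit was tested on simulated data. Python 3.11.15, pandas 2.3.3 and matplotlib 3.10.9 were used. Locations are from GENCODE on GRCm38 and promoters from RefSeq, matched by symbol (8291 of the tested genes for promoters). Depth in reads is unknown, so no interval covers counting error.

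Named by rule were the called genes of at least 5 FPKM with the 12 largest increases and 12 decreases, the 5 most abundant called genes, up to 6 called members of each list with the smallest p and any called in the other direction (where none was called, up to 2), and the importin and Ran genes. For the first, predicted loci and small RNAs were left out. Some genes covered by that rule are not reported here. Also named, after their values were seen, were genes that complete a pathway or a complex, such as further sterol enzymes, eIF2 kinases and mitochondrial messages. The members and lists were chosen with earlier results of these data known. Alternatives were the pseudocount, the filter, the scaling, the sample set, the variance model, the threshold, a replicate block and leaving out each sample.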

Additional observations from a re-analysis of the deposited data

How the results depend on the processing

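Against 283 changed genes (216 higher, 67 lower), testing without a filter on low values, which adds genes to the adjustment, gave 98 (85 and 13) and an adjusted p under 0.01 gave 111 (93 and 18). Quantile normalization gave 156 lower genes and median-of-ratios scaling 139, while 245 and 256 of the 283 genes still passed. Leaving out 1 sample gave 121 to 339 changed genes, 97 to 283 higher and 24 to 56 lower. The ATF4 regulators that rose numbered 12, 6 without the filter and 6 to 10 without 1 sample. The mitochondrial transcripts that fell numbered 9, 3 without the filter and 5 to 9 without 1 sample. Counts for the mevalonate and sterol synthesis, fatty acid synthesis and cytosolic tRNA synthetase lists stayed within 1.5 times of their values in each alternative. The sterol sensing and uptake genes that rose numbered 5, 2 without the filter and 3 without vehicle 2. Of thick filament genes 2 fell, 0 without the filter and 1 with the block or plain variances. Further, of 90 called genes under the naming rule 51 passed in all 15 alternatives and 31 were lost without vehicle 2. The cause of these shifts was not tested beyond the number of genes or samples.

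Replicate numbers are shared by the groups, but deviations of samples with the same number correlated at -0.0013, -0.0252 and 0.0824, so the numbers were not taken as pairs. With a replicate block 170 genes passed (138 higher, 32 lower), 167 of them among the 283. Count tests were not run, since the reads behind the FPKM were not recovered. Depth limits genes near 1 FPKM.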

Other observations

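The following called genes stand outside the gene lists or were chosen after their values were seen, and are given as values. Several belong to lipid metabolism. Aacs, which makes acetoacetyl-CoA in the cytosol, went from 21.4 ± 1.13 to 36.9 ± 1.04 FPKM (mean ± SD, n = 3, log2 change 0.76, limma adjusted p = 0.0005). Idh1, a cytosolic source of NADPH, went from 11.3 ± 1.86 to 17.9 ± 0.769 FPKM (0.63, 0.0174). Nceh1, which splits cholesterol esters, and Tmem97, a sterol-regulated membrane protein, rose by 0.75 and 0.45 (limma adjusted p = 0.000741 and 0.00276). Acat3, a near copy of Acat2 whose reads the authors' counting could split, rose by 0.67 and Acat2 by 0.80 (limma adjusted p = 0.00743 and 0.000369), so both are uncertain.

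Beside the amino acid genes, Pck2, a mitochondrial enzyme that makes phosphoenolpyruvate, went from 17.0 ± 1.23 to 29.1 ± 2.12 FPKM (0.74, limma adjusted p = 0.00181). Flcn and Fnip2, which encode partner proteins in nutrient signalling at the lysosome, rose by 0.54 and 0.67 (limma adjusted p = 0.00783 and 0.00604). The host transcripts of small nucleolar RNAs Gas5 and Snhg6 rose by 0.42 and 0.50 (limma adjusted p = 0.00505 and 0.0125). The small nucleolar RNA Snord33 was listed at 0 in the 3 vehicle samples and at 2.60, 11.2 and 4.99 FPKM with importazole, and Mir8112 at 0 and 3.27, 1.95 and 1.91 FPKM. Both rest on low values, and depth limits genes near 1 FPKM. Snord33 did not pass without vehicle 3 (limma adjusted p = 0.0558).

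Other genes stood apart by size. Mlana, a melanosome gene, stood at 173, 165 and 151 FPKM with vehicle and 273, 270.0 and 251 FPKM with importazole (0.69, limma adjusted p = 0.000818). Atp2a3, a calcium pump of the endoplasmic reticulum, stood at 0.626, 0.959 and 0.914 FPKM with vehicle and 3.40, 3.31 and 3.30 FPKM with importazole (1.25, 0.000574). Among lower genes, Fhl1, a muscle LIM protein, went from 72.6 ± 2.59 to 49.4 ± 1.27 FPKM (-0.55, limma adjusted p = 0.00143), and Ckm, the muscle creatine kinase, fell by 0.41 (limma adjusted p = 0.0182). Idh1 did not pass without vehicle 3, importazole 1, importazole 2 or importazole 3 (limma adjusted p 0.0558 to 0.0837). Snhg6 did not pass without vehicle 2 or importazole 1 (limma adjusted p 0.0561 to 0.0605). Ckm did not pass without vehicle 2, importazole 1, importazole 2 or importazole 3 (limma adjusted p 0.0601 to 0.0863).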
